A study of Mus musculus with 2 samples.

Results

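The genes of osteoblast differentiation and mineral matrix were 10 listed genes of the 21905 genes measured, namely Runx2, Sp7, Alpl, Ibsp, Spp1, Phex, Bglap, Bglap2, Ifitm5 and Dmp1. All 10 were found in both libraries. They were chosen by name for their known place in the osteoblast lineage, but with earlier results of these data known. Runx2, Sp7, Alpl and Spp1 were taken as early genes of the lineage and the other 6 as late genes.

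The RNA of single bone resident cells, from the tibias and femurs of female mice aged 12 weeks, was counted in droplet 3′ libraries. The Veh library came from vehicle-treated mice and the Doxo library from mice given 10 mg/kg of doxorubicin, an anthracycline that damages DNA, and both were harvested 96 h after treatment. Bone was digested with collagenase and depleted of cells with CD45, CD71, Ter119 and, by the labels but not the study's methods, CD31, and the labels for these libraries give neither a strain nor the number of mice pooled in each. With 1 library per condition there was no test between them, and each 95% interval below is an exact interval that covers counting error only.

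Osteoblasts arise from mesenchymal progenitors in which Runx2 and then Sp7 (osterix) switch on the bone program. Alkaline phosphatase appears early, the matrix is then filled with collagen and acidic phosphoproteins, and osteocalcin comes with mineralization. A part of these cells is buried in the matrix and becomes osteocytes, which are known for Dmp1 and Phex.

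The sequences just before the start of 4 members are shown because Runx2, itself a member, is known to bind the letters ACCACA, and these genes differ in whether they hold them. Of the 10 members, 8 matched the RefSeq table of starts (GRCm38.p6), and ACCACA or its reverse complement TGTGGT lay in the 250 bases before the start of 3 of them, Runx2, Spp1 and Bglap. Over all 32851 starts in the table, 14.0% held either form in the same window. A match is a description of the letters and not of binding. These starts are those of RefSeq, and the gene positions given below are from GENCODE, which can differ. By GENCODE, Runx2 reaches 44814797 and Ibsp begins at 104299171. Both positions lie within the windows printed here, so part of each window is inside the gene by that annotation. In each sequence the motif is in capitals. It begins 80 bases before the start of Runx2 (chr17:44814628-44814877, minus strand), 128 before that of Spp1 (chr5:104434861-104435110, plus strand) and 132 before that of Bglap (chr3:88384467-88384716, minus strand), and the window of Ibsp (chr5:104299037-104299286, plus strand) holds none.
Runx2: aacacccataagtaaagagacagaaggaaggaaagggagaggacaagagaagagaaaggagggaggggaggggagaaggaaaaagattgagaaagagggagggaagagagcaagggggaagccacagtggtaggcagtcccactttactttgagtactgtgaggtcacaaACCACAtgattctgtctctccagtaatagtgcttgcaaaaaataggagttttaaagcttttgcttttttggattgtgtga
Spp1: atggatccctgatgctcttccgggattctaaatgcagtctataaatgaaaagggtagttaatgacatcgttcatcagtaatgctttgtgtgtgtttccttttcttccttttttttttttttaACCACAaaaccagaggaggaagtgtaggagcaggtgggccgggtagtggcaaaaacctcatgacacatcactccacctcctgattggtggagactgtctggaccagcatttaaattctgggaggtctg
Bglap: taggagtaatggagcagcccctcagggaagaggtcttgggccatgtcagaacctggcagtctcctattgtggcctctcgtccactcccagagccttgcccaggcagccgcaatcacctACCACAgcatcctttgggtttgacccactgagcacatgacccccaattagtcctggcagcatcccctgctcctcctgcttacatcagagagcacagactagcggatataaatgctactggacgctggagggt
Ibsp: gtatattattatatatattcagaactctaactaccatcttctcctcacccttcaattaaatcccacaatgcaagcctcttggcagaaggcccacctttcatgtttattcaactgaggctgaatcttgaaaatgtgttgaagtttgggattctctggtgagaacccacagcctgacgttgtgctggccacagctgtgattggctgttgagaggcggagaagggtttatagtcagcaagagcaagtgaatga

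A level is the number of unique molecular identifiers (UMIs, one for each RNA molecule captured) summed over the cells of a class, per 1000000 UMIs of that class (CPM). The Veh library held 24859695 UMIs in 2488 cells and the Doxo library 20792012 UMIs in 2488 cells, and the libraries shared 4 cell barcodes. Cells were clustered with the members left out, so that the levels below did not draw the classes, and classes were named from lists of markers. The osteoblast-like class held 186 Veh and 110 Doxo cells. It had 10 of 12 osteoblast markers that are not members, among them Col1a1, Col1a2 and Smpd3. These cells were shallow, with medians of 3028 and 2940 UMIs, against 8693 and 7347.5 over the whole libraries. The other classes were like Cxcl12-abundant reticular (CAR) cells of the marrow (371 and 428 cells), bone and cartilage fibroblasts (1092 and 1343), arteriolar and endosteal fibroblasts (446 and 277), chondrocytes (246 and 206) and endothelial cells (103 and 69), and a class of 44 and 55 cells was left unnamed.

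In osteoblast-like cells Spp1 was the 1 member past 1.5-fold in summed UMIs. The log2 ratio of Doxo to Veh was above 0 for 8 of the 10 members, with a median of 0.22, against a median of -0.05 over all 7190 genes that had 10 or more UMIs there. One member was at least 1.5-fold higher in Doxo, where 16.6% of all genes were, and 0 members were at least 1.5-fold lower, where 23.2% of all genes were. The median was 0.03 for the 4 early genes and 0.25 for the 6 late genes, a difference of 0.22. The intervals of 5 members, Spp1, Ibsp, Bglap, Bglap2 and Dmp1, lay above 0 and those of the other 5 held 0. The share of all genes with a ratio or an interval above 0 was not counted. Intervals narrow with the number of UMIs, of which Bglap had 58126 in Veh and Runx2 117. Spp1 and Ibsp changed sign under other clusterings, as given below. The median moved to 0.39 with totals that leave out the members, Bglap3, Col1a1, Col1a2 and Sparc, and to -0.17, below 0, over all deposited cells summed without classes. Medians over cells, an alternative chosen after seeing the data, put 3 members past 1.5-fold higher, namely Bglap (0.70), Bglap2 (0.64) and Ifitm5 (0.62).

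The osteoblast-like cells of the libraries also differed in other measures, whose part in these ratios was not tested. The median share of mitochondrial UMIs was 2.195% in Veh and 4.295% in Doxo. The 12 osteoblast markers summed to 135713 CPM in Veh and 181595 CPM in Doxo, the 10 CAR markers to 638 and 232 CPM and the 10 chondrocyte markers to 7042 and 5760 CPM. The 5 erythroid markers summed to 493 CPM in Veh, and all 5 were at 0 in Doxo.

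**Figure D1:**
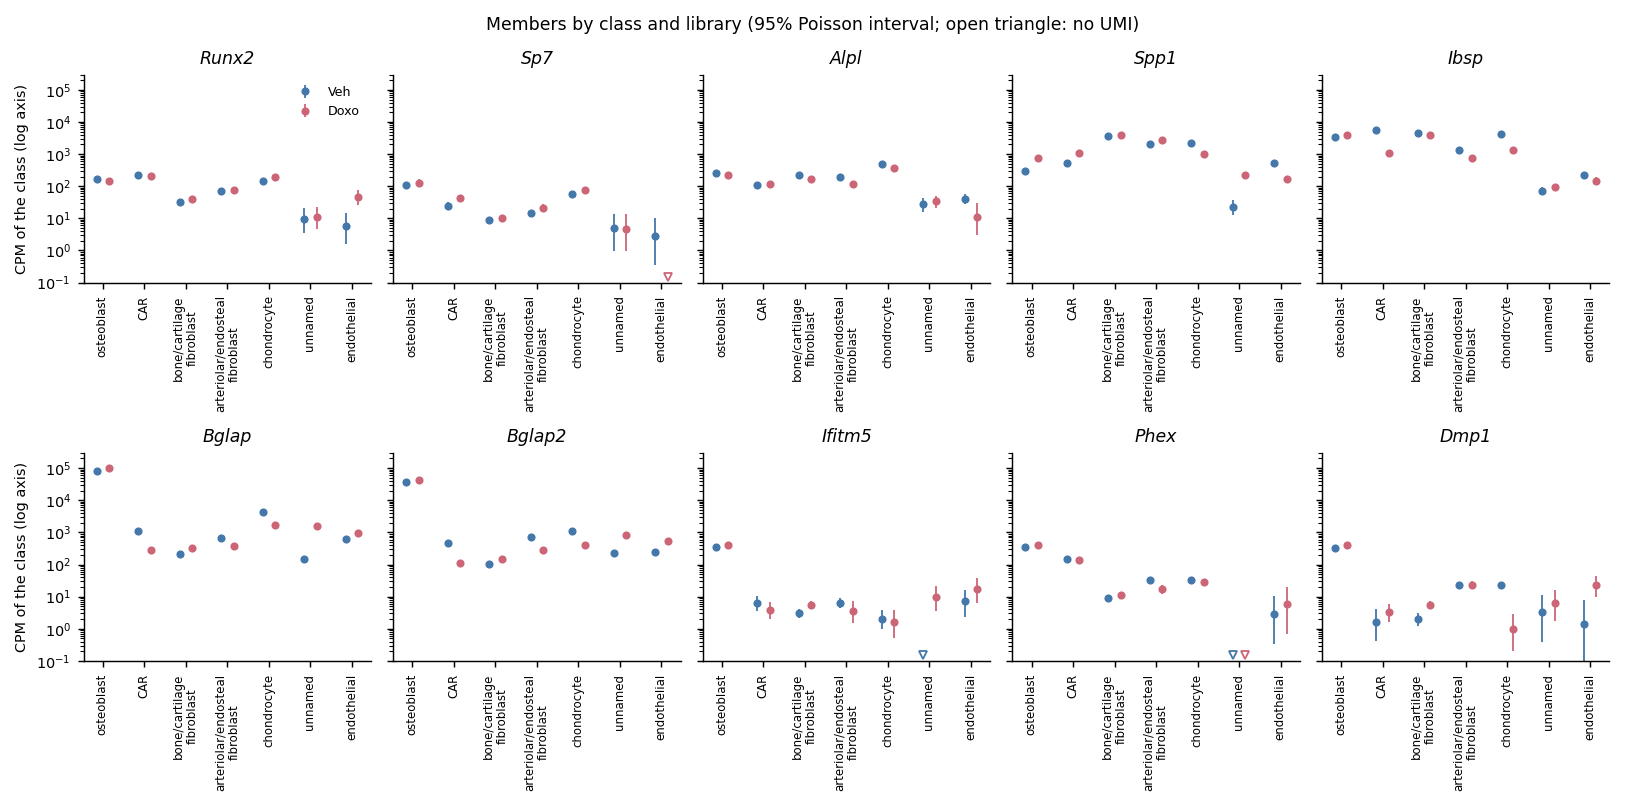
Levels of the 10 members in each class and library, as CPM on a log axis, with 95% Poisson intervals; open triangles mark a class with no UMI. Bglap, Bglap2, Ifitm5 and Dmp1 were highest in osteoblast-like cells of both libraries, whereas Ibsp and Spp1 reached their highest levels in other classes.

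Runx2, the transcription factor that commits progenitors to the lineage, lies on the minus strand of chromosome 17 (GRCm38, 44495987 to 44814797), where Supt3 and 3 antisense genes overlap it on the other strand. It stood at 167 CPM in Veh and 143 CPM in Doxo osteoblast-like cells, a log2 ratio of -0.22 (interval -0.69 to 0.24), so that a difference was not detectable at this depth. Its level was higher in CAR-like cells, at 228 CPM in Veh and 209 CPM in Doxo, with a ratio of -0.13 (-0.29 to 0.03). In chondrocyte-like cells it was 149 CPM in Veh and 190 CPM in Doxo, a ratio of 0.35 (0.19 to 0.51). The fibroblast-like classes had less, between 33.3 and 77.0 CPM. A UMI of Runx2 was found in 68.7% of Veh and 67.5% of Doxo CAR-like cells, against 3.88% and 7.25% of endothelial-like cells. With each cell thinned to 2000 UMIs, which left out 17 Veh and 11 Doxo CAR-like cells, the CAR-like shares were 40.4% and 34.1%, and those of endothelial-like cells 1.04% and 1.64% with 7 and 8 cells left out. The 16 Doxo UMIs in endothelial-like cells stood for 45.7 CPM, and 93.8% of them were in the top 5% of cells.

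Sp7, the factor that acts after Runx2, lies on chromosome 15 (102356606 to 102367182, minus strand). It stood at 113 CPM in Veh and 129 CPM in Doxo osteoblast-like cells (0.20, interval -0.33 to 0.71). Chondrocyte-like cells came next, with 59.2 and 78.2 CPM (0.40, 0.15 to 0.65), and a UMI in 56.5% and 58.3% of their cells, which are deep, at medians of 19484.5 and 14753 UMIs. Thinned, these shares were 9.17% and 10.4%. CAR-like cells had 24.9 CPM in Veh and 41.6 CPM in Doxo, a ratio of 0.73 (0.30 to 1.19), and the share of cells with a UMI went from 12.9% to 23.8%, or from 3.67% to 6.71% with each cell thinned. Both factors were thus found well outside the osteoblast-like class, and both held a level in chondrocyte-like cells that was above the endothelial-like one.

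Alpl, tissue-nonspecific alkaline phosphatase, frees phosphate by cutting pyrophosphate, and lies on chromosome 4 (137741733 to 137796384, minus strand). It stood at 252 CPM in Veh and 230 CPM in Doxo osteoblast-like cells (-0.13, interval -0.51 to 0.23). Its highest level was in chondrocyte-like cells, 490 CPM in Veh and 379 CPM in Doxo, where the ratio was -0.37 (-0.47 to -0.27). It was also lower in Doxo in bone and cartilage fibroblast-like cells (-0.36, -0.45 to -0.27) and in arteriolar and endosteal fibroblast-like cells (-0.65, -0.86 to -0.45). At a finer clustering resolution the first of these ratios was -0.00307, but the class was then a different set of cells, as described below. In CAR-like cells Alpl was 111 and 121 CPM, a ratio of 0.13 whose interval held 0.

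Phex, an endopeptidase of osteoblasts and osteocytes whose loss causes phosphate wasting, lies on chromosome X (157162075 to 157415312, minus strand). It stood at 349 CPM in Veh and 417 CPM in Doxo osteoblast-like cells (0.26, interval -0.03 to 0.54). Most of it sat in few cells, with 68.2% of the Veh and 65.2% of the Doxo UMIs in the top 5% of cells, and the ratio was 1.21 when cells with few genes or many mitochondrial UMIs were left out, which kept 69 Veh and 30 Doxo cells. CAR-like cells were the only other class with over 100 CPM, at 147 in Veh and 135 in Doxo (-0.13, -0.33 to 0.07), and 37.7% and 40.2% of them had a UMI. Thinned, the CAR-like shares were 22.6% and 21.1%, against 1.04% and 1.64% of endothelial-like cells.

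Ibsp, bone sialoprotein, binds hydroxyapatite and cell integrins. It lies on chromosome 5 (104299171 to 104311469, plus strand), between Dmp1 and Spp1 in the cluster of acidic phosphoprotein genes. Osteoblast-like cells had 3338 CPM in Veh and 3799 CPM in Doxo, a log2 ratio of 0.19 (interval 0.09 to 0.28), which turned to -0.33 when the members could be used for clustering and to -0.29 with 20 components. CAR-like cells had 5572 CPM in Veh and 1118 CPM in Doxo, a ratio of -2.32 (-2.37 to -2.26), the Doxo level being 4.98-fold lower. In Veh this was 167% of the osteoblast-like level (160 to 174%), and in Doxo 29.4% (27.8 to 31.2%). So the class with the highest level of Ibsp in Veh was the CAR-like one, and in Doxo it was the bone and cartilage fibroblast-like one.

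The lower level of Ibsp in Doxo CAR-like cells was spread over the class. The middle cell had 4133 CPM in Veh and 410 CPM in Doxo. A UMI was found in 89.5% of Veh (85.9 to 92.4%) and 69.6% of Doxo cells (65.0 to 74.0%), and in 81.6% and 52.5% with each cell thinned to 2000 UMIs, against 7.29% and 8.20% of thinned endothelial-like cells. Cells with over 1% of their UMIs from Ibsp were 82 of 371 in Veh, 22.1% (18.0 to 26.7%), and 3 of 428 in Doxo, 0.701% (0.145 to 2.03%). The top 5% of cells held 23.7% of the Veh UMIs, so no handful of cells carried the level.

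**Figure D2:**
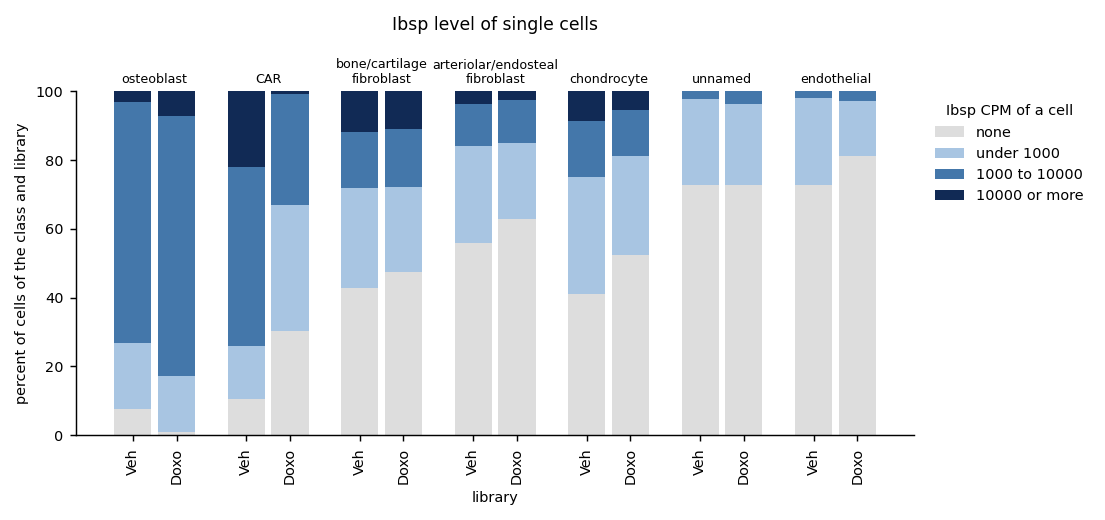
Percent of the cells of each class and library by the Ibsp level of the cell, in 4 ranges of CPM. The darkest range, 1% or more of the UMIs of a cell, held 22.1% of Veh and 0.701% of Doxo CAR-like cells, while in bone and cartilage fibroblast-like cells it held 11.7% and 11.02%.

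The CAR-like cells were also clustered alone, with the members left out, into 3 populations, a split chosen after the difference was seen. Population 1 (268 Veh and 396 Doxo cells) had 5792 CPM of Ibsp in Veh and 1069 CPM in Doxo, a log2 ratio of -2.44 (interval -2.50 to -2.38). Population 2 was nearly all from the Veh library (85 and 6 cells) and had 5039 and 418 CPM, a ratio of -3.56 (-4.19 to -3.05). Population 3 (18 and 26 cells) had 5832 and 1558 CPM, a ratio of -1.90 (-2.04 to -1.77). Ibsp was lower in Doxo in each of them. Over all CAR-like cells, the summed 10 CAR markers stood at 42562 CPM in Veh and 51538 CPM in Doxo, the 12 osteoblast markers at 3828 and 3192 CPM, and the 5 erythroid markers, hemoglobin genes and Alas2, at 973 and 3.56 CPM with 0 and 1 of them at 0. The part of these in the Ibsp level was not tested.

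The other members did not share this pattern in CAR-like cells. All 10 had enough UMIs there to be counted. Ibsp, Bglap, Bglap2 and Ifitm5 were at least 1.5-fold lower in Doxo, 4 members where 11.5% of all genes were, and Sp7, Spp1 and Dmp1 were at least 1.5-fold higher, 3 members where 14.8% of all genes were. Ifitm5 and Dmp1 rested on few molecules, since Ifitm5 had 16 Veh and 13 Doxo UMIs (-0.70, interval -1.89 to 0.44) and Dmp1 had 4 and 11 (0.94, -0.71 to 3.15). The lower sum of Bglap rested on a handful of cells: 2243 of the 2737 Veh UMIs came from 5 cells, and the middle cell had 180 CPM in Veh and 186 CPM in Doxo. The same held for Bglap2, with 85.4% of its Veh UMIs in the top 5% of cells. The median ratio was -1.32 for the late genes and 0.43 for the early genes. The late median lay between Bglap (-1.94) and Ifitm5 (-0.70), whose limits are given above. Of the late genes, Phex (-0.13) and Dmp1 (0.94) did not follow it.

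**Figure D3:**
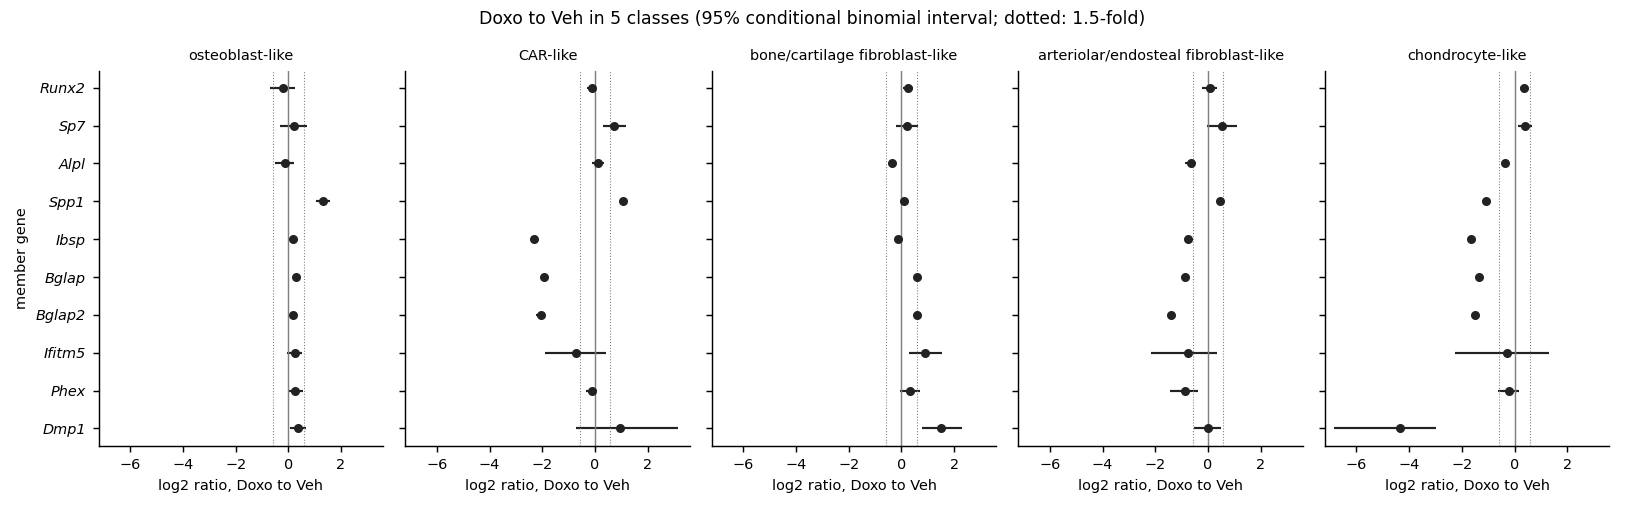
Log2 ratio of Doxo to Veh for each member in 5 classes, with 95% conditional binomial intervals; dotted lines mark 1.5-fold. In osteoblast-like cells every member but Spp1 lay within 1.5-fold, and Ibsp, Bglap and Bglap2 lay to the left of it in CAR-like, arteriolar and endosteal fibroblast-like and chondrocyte-like cells.

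Spp1, osteopontin, is a secreted phosphoprotein that limits crystal growth and is also made by many cells outside bone. It lies on chromosome 5 (104435118 to 104441050, plus strand), and Gm42793 overlaps its exons on the same strand. Osteoblast-like cells had 299 CPM in Veh and 743 CPM in Doxo, a log2 ratio of 1.31 (interval 1.06 to 1.57). The count hides an uneven spread, since 5 Doxo cells held 205 of the 317 UMIs, and 5 Veh cells held 78 of the 210. A UMI was found in 40.3% of Veh (33.2 to 47.7%) and 53.6% of Doxo cells (43.9 to 63.2%), and in 27.1% and 37.1% of thinned cells, of which 46 and 21 were left out. The direction also depended on where the class ended. The ratio was -0.17 when the members could be used for clustering, -0.40 with 20 components and 0.0063 when cells under 1000 genes or over 5% mitochondrial UMIs were left out.

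In each library Spp1 was higher in CAR-like, both kinds of fibroblast-like and chondrocyte-like cells than in osteoblast-like cells. It reached 3630 CPM in Veh and 3831 CPM in Doxo bone and cartilage fibroblast-like cells, where the ratio was 0.08 (0.06 to 0.10). In CAR-like cells Spp1 had 529 CPM in Veh and 1120 CPM in Doxo, a ratio of 1.08 (0.99 to 1.17), with 64.3% of the Doxo UMIs in the top 5% of cells. In chondrocyte-like cells it had 2205 and 1038 CPM (-1.09, -1.14 to -1.03), of which the top 5% of cells held 95.3% and 95.5%. Endothelial-like cells had 528 CPM in Veh and 163 CPM in Doxo, with a UMI in 31.1% and 34.8% of cells. In Veh the endothelial-like level was thus 176% of the osteoblast-like one, with 341 of its 370 UMIs in 5 cells, so that the osteoblast-like sum of Spp1 in Veh was no higher than that of cells outside the lineage.

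Dmp1, a phosphoprotein of late osteoblasts and osteocytes, lies on chromosome 5 (104202613 to 104214102, plus strand). It stood at 319 CPM in Veh and 410 CPM in Doxo osteoblast-like cells (0.36, interval 0.07 to 0.65), with a UMI in 32.8% and 30.9% of cells. The top 5% of cells held 57.1% and 66.3% of its UMIs. No other class had over 23.1 CPM in either library. In chondrocyte-like cells there were 110 UMIs in Veh and 3 in Doxo, and 1.63% and 1.46% of those cells had one, so the Veh molecules came from a few cells.

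Bglap and Bglap2 encode osteocalcin, a small protein of mineralized matrix made by mature osteoblasts, and lie side by side on the minus strand of chromosome 3 (88383501 to 88384464 and 88377736 to 88378699), next to Bglap3 (88368616 to 88372743). Their transcripts are near copies: 51.3% of the stretches of 50 bases in those of Bglap also occur in Bglap2, and 69.2% of those of Bglap2 occur in Bglap. Reads that fit both cannot be given to one of them, so the split between these genes is uncertain. Bglap stood at 82821 CPM in Veh and 101507 CPM in Doxo osteoblast-like cells (0.29, interval 0.28 to 0.31), and Bglap2 at 37478 and 42691 CPM (0.19, 0.16 to 0.22). The pair made up 12.0% of all RNA molecules of these cells in Veh and 14.4% in Doxo. The middle cell had 45863 CPM of Bglap in Veh and 74277 CPM in Doxo.

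Bglap3, another copy, which is not a member, went the other way. Osteoblast-like cells held 1055 of its UMIs in Veh and 33 in Doxo, or 1503 and 77.3 CPM, and the log2 ratio was -4.26 (interval -4.83 to -3.78). In the other named classes its UMIs in Veh and Doxo were 74 and 1 (CAR-like), 64 and 1 (bone and cartilage fibroblast-like), 76 and 2 (arteriolar and endosteal fibroblast-like), 249 and 4 (chondrocyte-like) and 8 and 0 (endothelial-like). Bglap3 made up 1.23% of the UMIs of the 3 genes in Veh, so that their sum, with a ratio of 0.24 (0.23 to 0.26), kept the direction of Bglap and Bglap2. Bglap3 was named here after its values were seen. Whether both libraries were counted with the same annotation and settings is not given in the sources used here, and this bears on Bglap and Bglap2 too, since 19.3% and 37.9% of their stretches of 50 bases also occur in Bglap3.

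Ifitm5 encodes a membrane protein found almost only in osteoblasts, and a change in it causes a form of brittle bone disease. It lies on chromosome 7 (140948958 to 140950291, minus strand), where Gm45717 overlaps its exons on the same strand. It stood at 351 CPM in Veh and 415 CPM in Doxo osteoblast-like cells (0.24, interval -0.04 to 0.53). A UMI was found in 53.8% and 62.7% of these cells, and in 45.0% and 48.3% of thinned cells. In every other class it was at or below 17.1 CPM in both libraries, at most 4.13% of the osteoblast-like level.

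Bone and cartilage fibroblast-like cells held 53.6% of the Ibsp UMIs of the Veh library and 79.1% of those of the Doxo library, and 65.5% and 75.1% of the Spp1 UMIs. The class was also the largest, with 11125574 of the 24859695 UMIs of all genes in Veh and 10706928 of the 20792012 in Doxo. Its Ibsp level in Veh, 4507 CPM, was below the 5572 CPM of CAR-like cells. Within the class Ibsp and Spp1 sat in subsets of cells. Cells with over 1% of their UMIs from Ibsp were 128 of 1092 in Veh, 11.7% (interval 9.87 to 13.8%), and 148 of 1343 in Doxo, 11.02% (9.39 to 12.8%). For Spp1 there were 97 cells in Veh, 8.88% (7.26 to 10.7%), and 160 in Doxo, 11.9% (10.2 to 13.8%). In Veh 14 cells passed both limits, and in Doxo 14 did, so most cells of each subset lay outside the other. Whether this overlap differs from that of unrelated limits was not tested, so it does not show separate populations. At a clustering resolution of 0.2 the class came apart, and a cluster of 340 Veh and 506 Doxo cells with Ibsp among its 10 leading genes had 1 of the 10 markers of bone and cartilage fibroblasts and stayed unnamed.

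The cells rich in Ibsp in this class carried other bone and cartilage genes too, which is given as a description since they were picked by Ibsp. Alpl stood at 1301 CPM in them and 74.5 CPM in the rest of the class in Veh, and at 974.8 and 68.7 CPM in Doxo. Runx2 stood at 114 against 22.6 CPM in Veh and 124 against 28.8 CPM in Doxo, and Sp7 at 37.6 against 4.78 and 36.6 against 6.63. Smpd3, a sphingomyelinase needed for mineralization, stood at 142 against 7.53 CPM in Veh and 142 against 10.1 in Doxo. Dmp1 and Ifitm5 stayed at or under 9.99 CPM in them, and Bglap was at 593 CPM in Veh and 616 CPM in Doxo, under 1% of the osteoblast-like level. Col2a1, the collagen of cartilage, stood at 3873 against 532 CPM in Veh and 3266 against 768 CPM in Doxo. Pth1r, the receptor for parathyroid hormone, stood at 502 against 64.6 CPM in Veh, and Omd, a keratan sulfate proteoglycan of bone, at 2577 against 376 CPM. The part of cartilage cells in these levels was not tested. The cells rich in Spp1 lay closer to the rest of the class in these genes. Their Alpl was 288 CPM against 209.6 in Veh and 287 against 154 in Doxo, and their Sp7 was 18.2 against 7.46 and 21.6 against 8.33 CPM. Runx2 stood at 49.6 against 31.3 CPM in Veh and 64.7 against 35.9 in Doxo, while Smpd3 was at 15.7 against 24.2 in Veh and 35.7 against 23.4 in Doxo. Col2a1 was lower in the cells rich in Spp1, at 313 against 998 CPM in Veh and 749 against 1091 CPM in Doxo. Median depths were 9748 UMIs in the Ibsp-rich Veh cells and 9682 in the rest, and 7589.5 and 7290 in Doxo. The Spp1-rich Veh cells were deeper, with 12193 UMIs against 9399 in the rest, and in Doxo the medians were 7587.5 and 7284. Over the whole class 3 members, Bglap, Ifitm5 and Dmp1, were at least 1.5-fold higher in Doxo, where 5.70% of all genes were, and 0 were as much lower, where 11.6% were. Ifitm5 had 34 Veh and 61 Doxo UMIs, or 3.06 and 5.70 CPM, against 7.13 and 17.1 CPM in endothelial-like cells. Dmp1 had 22 and 60 UMIs, and 5 cells held 40 of those in Doxo. Its levels were 1.98 and 5.60 CPM, against 1.43 and 22.9 CPM in endothelial-like cells. Those endothelial-like levels also rested on few UMIs. Bglap, at 213 CPM in Veh and 323 in Doxo (0.60), was here below its endothelial-like level in both libraries, and its ratio was -0.07 when the members could be used for clustering and -0.01 with 20 components.

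Chondrocyte-like cells were the only class besides the osteoblast-like one whose middle cell stood well above the endothelial-like one in Bglap, and only in Veh. The middle cell had 873 CPM of Bglap in Veh and 285 CPM in Doxo, against 156 and 365 CPM in endothelial-like cells. Over the class the level was 4294 CPM in Veh and 1672 CPM in Doxo, a log2 ratio of -1.36 (interval -1.40 to -1.32), which was -0.99 without the deepest 5% of cells. The class held 3.77 Bglap UMIs per Bglap2 UMI in Veh (3.66 to 3.89) and 4.13 in Doxo (3.88 to 4.39), where osteoblast-like cells held 2.21 (2.18 to 2.24) and 2.38 (2.34 to 2.42). Ibsp was 4336 CPM in Veh and 1378 CPM in Doxo (-1.65, -1.70 to -1.61), with 68.6% and 58.3% of it in the top 5% of cells. In this class 5 members, Spp1, Ibsp, Bglap, Bglap2 and Dmp1, were at least 1.5-fold lower in Doxo, where 13.1% of all genes were, and 0 were as much higher, where 17.0% were. The 12 osteoblast markers, of which 0 were at 0, summed to 2795 CPM in Veh and 994 CPM in Doxo, and Col1a1 alone to 1115 and 123 CPM. In Veh 23 cells had over 1% of their UMIs from Bglap, at 23390 CPM against 1971 CPM in the other 223. Col1a1 stood at 8887 CPM in those 23 cells and at 170 CPM in the others, a description since they were picked by Bglap. The part of the osteoblast markers in the lower level of the members was not tested.

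Arteriolar and endosteal fibroblast-like cells had 6 members at least 1.5-fold lower in Doxo, Alpl, Ibsp, Bglap, Bglap2, Ifitm5 and Phex, where 12.2% of all genes were, and 0 members as much higher, where 8.51% were. Ibsp stood at 1330 CPM in Veh and 783 CPM in Doxo (-0.76, interval -0.84 to -0.69), and Bglap2 at 730 and 275 CPM (-1.41, -1.54 to -1.28). These levels came from few cells, with 69.9% of the Veh Ibsp and 81.8% of the Veh Bglap2 UMIs in the top 5% of cells. The middle cell had 135 CPM of Bglap in Veh and 193 CPM in Doxo, the opposite order to the ratio of the sums, -0.87 (-0.98 to -0.76). Bglap and Bglap2 were here near parity, at 0.947 Bglap UMIs per Bglap2 UMI in Veh (0.900 to 0.995) and 1.38 in Doxo (1.24 to 1.53). Ifitm5 rested on 28 Veh and 8 Doxo UMIs, with an interval of -2.18 to 0.34, and was 0.15 with cells thinned. The 12 osteoblast markers, of which 0 were at 0, summed to 13013 CPM in Veh and 8374 CPM in Doxo, and Col1a1 alone to 6634 and 3369 CPM. The 4 megakaryocyte or platelet markers summed to 496 and 203 CPM and the 5 erythroid markers to 179 and 2.72 CPM. Their part in the lower levels was not tested.

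Over the 6 classes outside the osteoblast-like one, the unnamed and endothelial-like ones included, 53 ratios of members had enough UMIs. Of these, 18 were at least 1.5-fold lower in Doxo, where 12.3% of the ratios of all genes were, and 13 were as much higher, where 12.8% were, so that the members went both ways.

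Free RNA can reach droplets of every cell type, and its size was not measured here. Levels in endothelial-like cells, which lie outside the lineage, are given for comparison. Bglap was found in 71.8% of Veh and 72.5% of Doxo endothelial-like cells, at medians of 6326 and 4629 UMIs, and in 68.2 to 90.2% of the cells of each other class outside the osteoblast-like one. In endothelial-like cells its level was 0.727% of the osteoblast-like level in Veh (interval 0.659 to 0.800%) and 0.954% in Doxo (0.855 to 1.06%), and that of Bglap2 was 0.670% and 1.22%. These sums rested on few cells. For Bglap, 5 cells held 315 of the 422 UMIs in Veh and 247 of the 339 in Doxo. For Bglap2, 5 cells held 141 of 176 and 152 of 183. The middle endothelial-like cell had 156 CPM of Bglap in Veh and 365 CPM in Doxo. A share of cells with a Bglap UMI near 70% was thus also found in cells outside the lineage. The part of free RNA, of doublets and of depth in it was not tested. Over the 10 members and both libraries the median endothelial-like level was 2.98% of the osteoblast-like one. The members split by how far they stayed within the osteoblast-like class. Bglap, Bglap2, Ifitm5 and Dmp1 were at most 7.24% of its level in each other class, while Runx2, Alpl, Spp1 and Ibsp reached or passed it in at least 1 class.

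**Figure D4:**
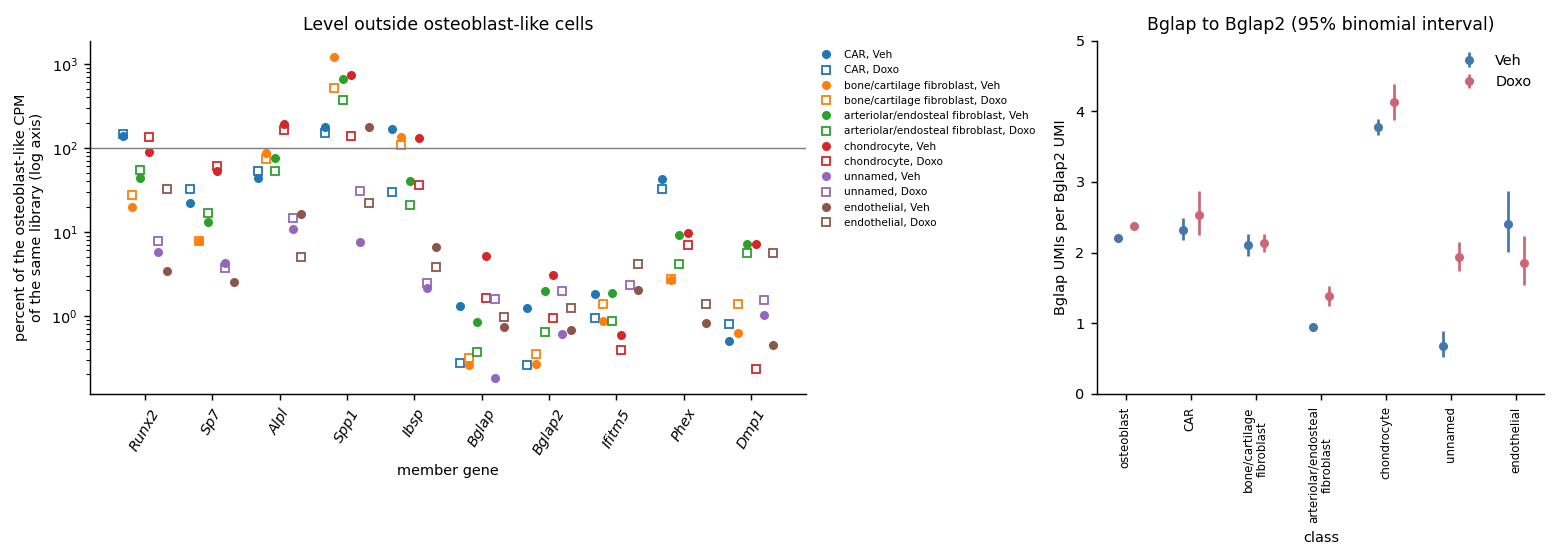
Left, level of each member outside osteoblast-like cells as a percent of the osteoblast-like CPM of the same library, on a log axis; classes without a UMI are not drawn. Right, Bglap UMIs per Bglap2 UMI in each class with 95% binomial intervals; the ratio was highest in chondrocyte-like cells, at 3.77 in Veh and 4.13 in Doxo.

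Within the osteoblast-like class, cells of each library were split into terciles by their summed Bglap and Bglap2, which made up 1.06, 6.92 and 22.1% of the UMIs of the Veh terciles and 3.09, 11.7 and 23.2% of those of the Doxo terciles. In Veh, Ifitm5 stood at 163 CPM in the lowest tercile, 278 in the middle and 512 in the highest, and 27.4, 48.4 and 85.5% of the cells had a UMI. With cells thinned, which left out 28, 13 and 5 of them, the shares were 23.5, 36.7 and 64.9%. In Doxo the levels were 378, 435 and 422 CPM, with overlapping intervals, although the share of cells with a UMI went from 45.9 to 62.2 and 80.6%. Thinned shares did not keep that order, the middle tercile having the lowest (36.7%) and the highest tercile 57.1%. Dmp1 took the opposite order in Veh, at 752, 244 and 103 CPM, with a UMI in 46.8, 30.6 and 20.97% of cells and in 35.3, 24.5 and 15.8% of thinned cells. With totals that leave out the same genes as above, its Veh levels were 911, 323 and 160 CPM. In Doxo its levels were 727, 376 and 247 CPM, but 1 cell held 54.4% of the UMIs of the lowest tercile and 1 held 70.6% of those of the middle one, and the shares, 29.7, 27.0 and 36.1%, did not follow. Osteocalcin-poor cells of the Veh library thus held more Dmp1 and less Ifitm5 in CPM than osteocalcin-rich ones, a description of 62 cells per tercile.

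Phex in terciles was led by single cells. It stood at 837 CPM in the lowest Veh tercile and at 774 CPM in the middle Doxo tercile, where 1 cell held 45.3% and 71.4% of its UMIs. Runx2 was 210, 199 and 119 CPM in the Veh terciles and 138, 170 and 126 CPM in the Doxo terciles, with overlapping intervals in each library. Ibsp ranged from 2922 CPM in the middle to 4057 in the lowest Veh tercile, where 1 cell held 27.6%, and from 3638 to 4236 CPM in Doxo. Cells that had 2 or more of the 4 CAR markers Cxcl12, Lepr, Adipoq and Ebf3 were 7 of 186 in Veh and 6 of 110 in Doxo, and without them, an alternative added after seeing the data, the median ratio of the members was 0.20.

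**Figure D5:**
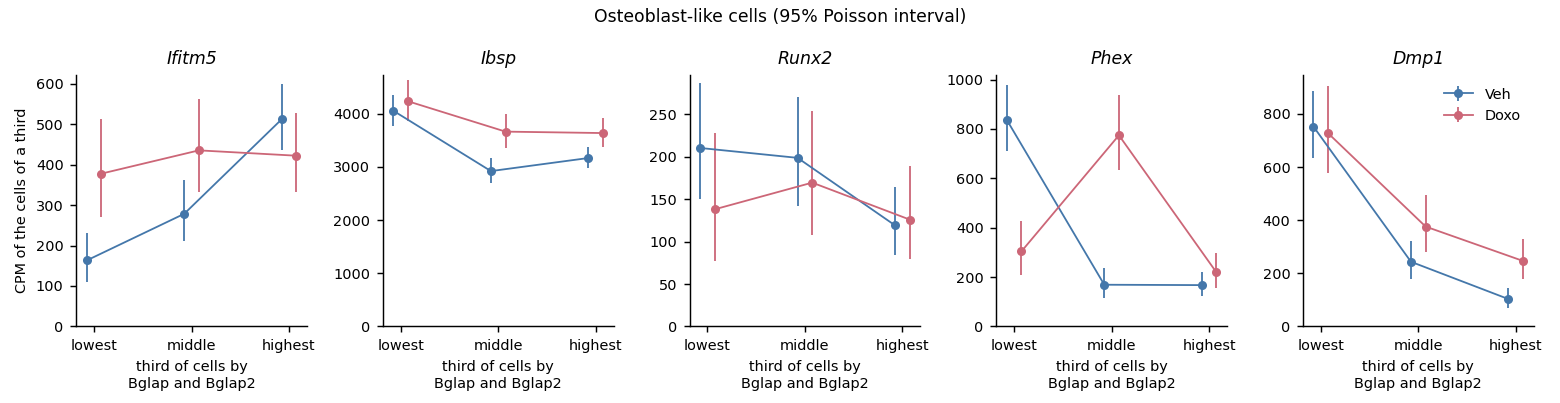
Levels of 5 members, as CPM, in terciles of the osteoblast-like cells of each library ordered by Bglap and Bglap2, with 95% Poisson intervals. In Veh Ifitm5 goes from 163 to 512 CPM and Dmp1 from 752 to 103 CPM across the terciles, while Ibsp stays between 2922 and 4057 CPM.

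The genes around the members in the same cells were taken from fixed lists, over those with at least 10 UMIs in osteoblast-like cells. Of 14 genes for bone collagen and its processing, 4 were at least 1.5-fold higher in Doxo and 0 lower, with a median log2 ratio of 0.34. The largest was that of Pcolce, which helps to trim procollagen, at 212 CPM in Veh and 445 CPM in Doxo (1.07, interval 0.75 to 1.39), and the smallest that of Col5a2 (-0.19). Among 9 of 11 other matrix genes, 2 were higher and 3 lower, with a median of -0.35, and Bgn, the proteoglycan biglycan, was the largest (0.90, 0.76 to 1.05) and Bglap3 the smallest. Among 10 of 15 transcription factors 1 was higher and 1 lower, with a median of -0.05, where Dlx3 was the largest (17 and 31 UMIs, 1.57, 0.69 to 2.53) and Tcf7 the smallest (22 and 7 UMIs, -0.87, -2.41 to 0.34).

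Among 7 of 9 genes of phosphate and pyrophosphate handling 0 were higher and 1 was lower, with a median of 0.08. Phospho1, a phosphatase of matrix vesicles, was the largest (18 and 15 UMIs, 0.46, interval -0.64 to 1.53), and the phosphate transporter gene Slc20a1 the smallest (18 and 4 UMIs, -1.32, -3.47 to 0.15). Of 7 osteocyte genes 4 had enough UMIs and none of these 4 was 1.5-fold higher or lower, with a median of -0.25, from -0.34 for Ptprz1 to 0.47 for Pdpn. Sost, the osteocyte inhibitor of bone formation, had 6 UMIs in Veh and 0 in Doxo, and Fgf23 had 0 in both. Of 6 hypertrophic chondrocyte genes 4 had enough, of which 2 were higher and 1 lower, from -1.30 for Mmp13 (50 and 12 UMIs, -2.39 to -0.41) to 0.59 for Pth1r among those with at least 20 UMIs. Shares of all genes past 1.5-fold in these cells are those given above.

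Over the 14 combinations of class and library, the genes whose level was most like that of Bglap2 were BC055402, Lipc, Rrbp1, Mlip and Entpd3, with Pearson r from 0.92 to 0.95 on log2(CPM + 1). Among the members Bglap (0.97), Ifitm5 (0.88) and Dmp1 (0.88) came closest to it and Spp1 was farthest (-0.18). Most like Runx2 were Irs1, Igsf3, Hpgd, Wipi1 and Lmo7, from 0.82 to 0.95, and among the members Phex (0.88), Sp7 (0.76) and Ibsp (0.72). The points share libraries and free RNA, so these values describe the classes and carry no p-value.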

How the data were processed

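Bone resident cells of 2 libraries, 1 of Veh and 1 of Doxo, were analysed. The submitters' processing notes name Cell Ranger and Partek (versions not given in the sources used here) and GRCm38. The authors deposited log2 values for each gene in each cell, which had been scaled to a fixed total per cell in 2 steps. These steps were inverted to whole UMIs. Of the nonzero values up to 50 UMIs, 99.94% lay within 0.1 of a whole number.

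Cells were clustered in Seurat 5.3.0 (R 4.3.3) on 2000 variable genes and 35 components at a resolution of 0.1, with the members and Bglap3 left out. Each cluster took the name of the marker list with most genes that were found in 10% of its cells and lay 1 log2 unit above the other cells, given at least 3 such genes. Doublets were not called. UMIs were summed per class and library, with 0.5 UMI added for ratios. Intervals are exact Poisson (levels), binomial (shares) and conditional binomial (ratios) intervals from scipy 1.17.1. A gene was counted as higher or lower from a 1.5-fold ratio and 10 UMIs over both libraries. Positions are from GENCODE's annotation of GRCm38. Besides the members, the text names the genes with the largest and smallest ratio in osteoblast-like cells in each list, among those with at least 20 UMIs, and the 5 genes most like Bglap2 and Runx2 among those with at least 50. The members, lists and alternatives were chosen with earlier results of these data known.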

Additional observations from a re-analysis of the deposited data

Results flagged for a closer look

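Members whose ratio of Doxo to Veh had its interval on one side of 0 in osteoblast-like cells and on the other in another named class are listed here, each with the ratio in the other class minus that in osteoblast-like cells on the log2 scale. The difference was not tested, since each condition has 1 library. In CAR-like cells it was -2.50 for Ibsp, -2.23 for Bglap and -2.25 for Bglap2. For Bglap there, 5 cells held 2243 of the 2737 Veh UMIs, and the middle cell had 180 CPM in Veh and 186 CPM in Doxo. In bone and cartilage fibroblast-like cells it was -0.34 for Ibsp. In arteriolar and endosteal fibroblast-like cells it was -0.95 for Ibsp, -1.16 for Bglap and -1.60 for Bglap2. The middle cell of that class had 135 CPM of Bglap in Veh and 193 CPM in Doxo, the opposite order. In chondrocyte-like cells it was -2.40 for Spp1, -1.84 for Ibsp, -1.65 for Bglap, -1.68 for Bglap2 and -4.70 for Dmp1, of which Dmp1 had 3 UMIs in Doxo. In endothelial-like cells it was -3.00 for Spp1 and -0.78 for Ibsp. In osteoblast-like cells Spp1 and Ibsp changed sign, to -0.17 and -0.33 when the members could be used for clustering and to -0.40 and -0.29 with 20 components.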

How the results depend on the processing

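In osteoblast-like cells 1 member was at least 1.5-fold higher in Doxo and 0 were lower. The number higher was 0 when the members could be used for clustering, 0 with 20 components, 0 with the endothelial-like level subtracted (9 members), 0 over all deposited cells and 2 when cells under 1000 genes or over 5% mitochondrial UMIs were left out. The number lower was 1 when the members could be used for clustering (Alpl, -0.61) and 1 with the subtraction (Runx2, -0.73). Over all cells the median ratio was -0.17, the late minus early difference -0.48 and the number of members above 0 was 4. In the other classes, the unnamed and endothelial-like ones included, 18 of 53 ratios were at least 1.5-fold lower and 13 as much higher, and 8 of 25 were lower with the subtraction. Ibsp in CAR-like cells (-2.32) was -2.24 with each cell given the same weight, -2.22 under the cell filter, -2.26 at a resolution of 0.2, -2.46 with the subtraction and, chosen after seeing the data, -3.33 as a ratio of medians and -2.44 in population 1. Bglap in chondrocyte-like cells (-1.36) was -1.25 thinned, -1.26 with equal weight, -2.39 with the subtraction, -0.99 without the deepest 5% of cells and -1.61 as a ratio of medians. Directions turned for Spp1 in osteoblast-like cells (-0.17 with the members in clustering, -0.40 with 20 components), Ibsp there (-0.33 and -0.29), Bglap in CAR-like cells (0.044, medians), Dmp1 in CAR-like cells (-1.75, 20 components), Bglap in bone and cartilage fibroblast-like cells (-0.074 with the members in clustering, -0.014 with 20 components), Bglap in arteriolar and endosteal fibroblast-like cells (0.46 with 20 components, 0.52 by medians) and Ifitm5 there (0.15, thinned). The causes were not tested. With 20 components no value was had for the count over the other classes, since no class was left unnamed.

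The median endothelial-like share of the osteoblast-like level stayed between 1.39 and 3.13%. With 1 library per condition the spread between mice is unknown, and the shallow osteoblast-like cells limit what can be said of members with few UMIs. No paired analysis was possible because each condition has 1 library and no result comes from a test.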

Other observations

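Bglap3 was 1 of 12 genes, among 8067 with at least 500 UMIs over both libraries, whose level differed at least 2-fold in the same direction in each of the 6 named classes, with 0.5 UMI added to each sum. Of the 12, 8 were lower and 4 higher in Doxo. The lower ones included 4 globin genes, Hba-a1, Hba-a2, Hbb-bs and Hbb-bt, the ribosomal RNA transcript Gm42418 and the histone gene Hist1h1b. The higher ones included Bc1, a noncoding RNA with 18 UMIs in Veh and 531 in Doxo, Tsix and Rtn2. Summed over all cells, the UMIs of Bglap3 were 1530 in Veh and 44 in Doxo (log2 ratio -4.85, interval -5.33 to -4.43). These genes were named after their values were seen.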
